A study of Homo sapiens with 32 samples.

Results

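The mRNA levels of the constitutive subunits of the proteasome were followed through 26 RNA sequencing libraries of 2 human cell lines. The 32 genes were taken from a fixed list: 7 of the alpha ring and 7 of the beta ring of the 20S core particle, 6 ATPases and 11 non-ATPase subunits of the 19S regulatory particle, and PSMD5, an assembly factor of the 19S base that carries a subunit name. Of these, 31 were found by symbol among the 57820 genes of the HCT116 files and the 11887 genes of the HEK293 files, and PSMB3 was not analysed here. All 31 passed the filter on low counts in every comparison.

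HCT116 is a colorectal cancer line and HEK293 an embryonic kidney line. All cultures were clones of sorted cells that had received Cas9-GFP, so the control clones carried the same nuclease as the deletion clones. Deletion clones had also received guides against a distal element named E7, 18qNE or 18qE, and control clones the empty guide vector. In HEK293 there were 2 E7 libraries and 2 control libraries, all from RNA extracted on day E. These E7 libraries are numbered 1 and 2 by title but share 1 clone label, and may be of a single clone. In HCT116, 1 E7 clone was sampled on days A, B and C (3 libraries), against 4 control clones sampled on the same days (12 libraries). Another 3 18qNE clones gave 1 library each, of which clones 1 and 3 were extracted on day A and clone 2 on day B. On day D, 2 18qE clones were sampled, against control clones 1 and 2. In the HCT116 tests of deletions a clone was treated as the replicate, so p-values there reflect how far these clones differ. The 18qNE clones came from days A and B and were tested without a day term, so their spread also holds differences between days. Tests between days, between control clones and of the day response of the E7 clone used single libraries. Their p-values reflect the scatter of libraries left after clone and day were fitted, not the spread between clones. In HEK293 each library was treated as a replicate, so E7 p-values there may rest in part on 2 libraries of 1 clone. The deleted elements are not genes, so these counts hold no direct check of the deletions.

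The proteasome is the barrel-shaped protease that degrades proteins marked with ubiquitin. The alpha ring gates the 20S core and the beta ring holds its active sites, with PSMB5, PSMB6 and PSMB7 as the catalytic subunits. The 19S particle binds ubiquitin chains, removes them, and unfolds the substrate with its ring of ATPases. Subunits are needed in fixed proportions, and their genes are known to be induced together by the transcription factor NFE2L1, which binds antioxidant response elements with small MAF partners when proteasome activity is short.

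Promoter windows from RefSeq on GRCh38.p14, reaching from 250 bases before to 50 bases after each annotated start, were given for 27 of the 32 genes. The antioxidant element core TGACNNNGC, searched on both strands, was found in the windows of 8 of these 27 genes (29.6%), against 16.1% of all 27305 genes with a window. The CCAAT box, searched on both strands, was found for 15 of the 27 (55.6%), against 39.7% of all genes. The E-box CACGTG, which reads the same on both strands, was found for 1 of the 27 (3.70%), that of PSMB3, against 8.78% of all genes. These are matches of letters and no evidence of binding. Windows are shown for the 4 genes whose values the results below turn on, 5′ to 3′ on the gene's strand, with matched motifs in capitals. PSMC5 lies on the plus strand at chr17:63827181-63827480 and has a CCAAT box starting 10 bases before the start. A second PSMC5 window, from another annotated start, holds the element core as GCTGTGTCA. PSMA2 lies on the minus strand at chr7:42932125-42932424, with a CCAAT box 84 bases before the start. PSMD5 lies on the minus strand at chr9:120842873-120843172, with the element core TGACACGGC 134 bases before the start. PSMC4 lies on the plus strand at chr19:39970915-39971214, with the core on the opposite strand, as GCTTGGTCA, 28 bases after the start.
PSMC5: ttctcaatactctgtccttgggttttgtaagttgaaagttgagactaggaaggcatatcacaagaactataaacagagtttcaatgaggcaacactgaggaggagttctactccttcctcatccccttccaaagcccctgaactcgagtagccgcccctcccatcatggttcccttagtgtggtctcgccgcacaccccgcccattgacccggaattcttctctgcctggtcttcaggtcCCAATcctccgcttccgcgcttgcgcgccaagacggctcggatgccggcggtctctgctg
PSMA2: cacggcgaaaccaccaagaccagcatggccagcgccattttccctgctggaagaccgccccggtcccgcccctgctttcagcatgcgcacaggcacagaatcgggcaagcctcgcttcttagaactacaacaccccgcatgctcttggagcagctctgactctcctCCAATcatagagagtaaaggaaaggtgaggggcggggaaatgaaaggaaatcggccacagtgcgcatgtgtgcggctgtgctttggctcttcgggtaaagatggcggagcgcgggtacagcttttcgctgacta
PSMD5: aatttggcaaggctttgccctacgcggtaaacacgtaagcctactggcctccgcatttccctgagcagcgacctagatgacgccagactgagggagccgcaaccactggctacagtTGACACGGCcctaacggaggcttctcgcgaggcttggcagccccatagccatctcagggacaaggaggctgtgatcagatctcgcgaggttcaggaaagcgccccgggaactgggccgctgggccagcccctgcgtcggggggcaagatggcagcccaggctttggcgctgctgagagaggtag
PSMC4: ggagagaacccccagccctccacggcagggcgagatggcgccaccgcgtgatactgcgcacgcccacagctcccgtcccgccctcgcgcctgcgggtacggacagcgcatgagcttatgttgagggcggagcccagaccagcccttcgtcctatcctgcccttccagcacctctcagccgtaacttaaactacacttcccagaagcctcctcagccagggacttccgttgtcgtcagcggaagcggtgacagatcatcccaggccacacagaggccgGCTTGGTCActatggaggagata

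Depth, as reads counted in genes, was 26491576 to 34790193 for the HEK293 libraries. For HCT116 it was 22972412 to 24887785 in the day D libraries and 9871667 to 14862268 in the rest. Levels are given as CPM, gene counts scaled to a common library total, which are not corrected for transcript length and so are compared between libraries but not between genes. The summed level of 7 epithelial markers was 4042 to 6552 CPM in the 22 HCT116 libraries. Only 4 of these 7 were listed in the HEK293 files, where they summed to 1011 and 1157 CPM in E7 libraries and 718 and 424 CPM in control libraries. Leukocyte markers summed to at most 2.15 CPM in HCT116 and endothelial markers to at most 1.46 CPM, with PTPRC and CDH5 at no more than 0.07 CPM. Fibroblast markers summed to 10.4 to 29.6 CPM, nearly all of it COL1A1, with COL1A2 at 0. HEK293 markers summed to 13.3 to 19.9 CPM in the HCT116 E7 libraries and 79.3 to 108 CPM in the 12 HCT116 control libraries of days A to C, with NEFM at 0 in all of these. In HEK293 they summed to 189 and 191 CPM in E7 libraries and 145 and 148 CPM in control libraries. PAX2, CRYAB and STMN2 of that list are missing from the HEK293 files, so the sums of the lines cover different genes. NEFM, a neurofilament gene of that list, had 35.8 and 28.7 CPM in the HEK293 E7 libraries and 0.63 and 0.68 CPM in the HEK293 control libraries. The part of these markers in the proteasome values was not tested. One control library stood apart from its day: control clone 1 on day A had 0.629% of its gene counts in the 31 proteasome genes, above the 0.497% to 0.528% of the other 3 control clones on that day.

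**Figure D1:**
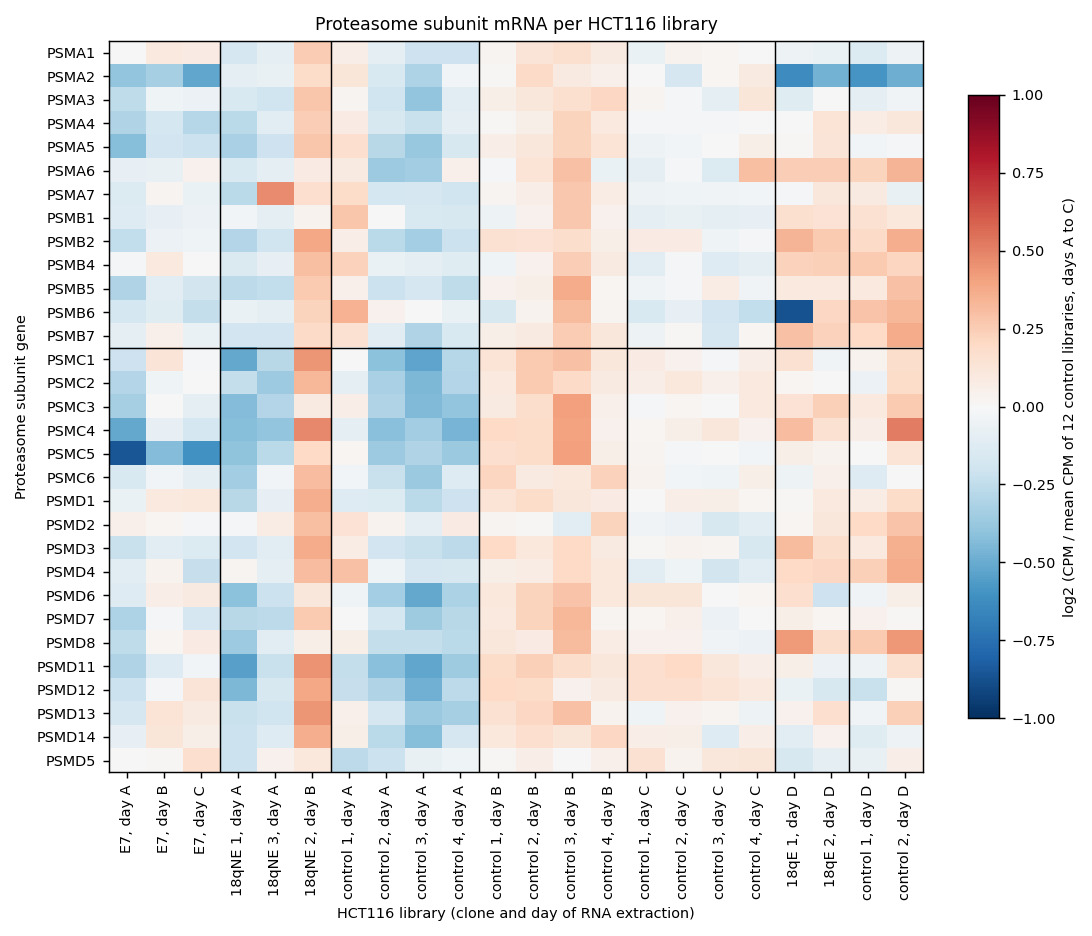
Level of each of the 31 measured proteasome genes (rows, 20S core above the line, 19S particle below) in each HCT116 library (columns), as log2 of CPM over the mean CPM of the 12 control libraries of days A to C. PSMC5 is low in the 3 E7 libraries, the columns of day A are lower than those of day B except for control clone 1, and PSMA2 is low in the 4 libraries of day D.

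In the HCT116 E7 clone, 2 of the 31 proteasome genes were lower than in control clones and none was higher. PSMC5, an ATPase of the 19S base, fell by 0.61 on the log2 scale (SE 0.10, adjusted p = 0.00835). PSMA2, a subunit of the alpha ring, fell by 0.39 (SE 0.10, adjusted p = 0.0457). The other 29 did not pass, and the median change of the 31 genes was -0.08, with 23 below 0, while the median of all genes tested was -0.01. Of all 17664 genes tested, 6.32% were called lower, which is close to the 2 of 31 seen here. Tests are edgeR quasi-likelihood tests on counts summed per clone, with Benjamini-Hochberg adjustment over all genes. There was 1 E7 clone, so only the control clones supply the spread. In such bulk samples, fewer cells with a transcript and less of it per cell cannot be told apart.

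PSMC5 had 162, 216 and 192 CPM in the E7 libraries of days A, B and C. In the 12 control libraries of those days its lowest level was 226, its median 295 and its highest 389 CPM. All E7 libraries thus lay below all control libraries, and within each day as well. The change of PSMC5 was -0.63 on day A alone, -0.65 on day B alone and -0.58 on day C alone, but passed the test only on day C (adjusted p = 0.00252), with adjusted p of 0.127 on day A and 0.0572 on day B. It kept its call without any 1 clone or E7 library, at -0.48 to -0.73. Against the 18qNE clones it was -0.50 and did not pass (adjusted p = 0.834).

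PSMA2 had 19.2, 20.2 and 17.7 CPM in the E7 libraries of days A, B and C, and its control libraries had a lowest level of 20.4, a median of 25.6 and a highest level of 29.0 CPM. The groups did not overlap, but the highest E7 level and the lowest control level were close. PSMC5 and PSMA2 were the only 2 of the 31 with every E7 library below every control library, against 6.6% of all genes. Its call was lost without control clone 1, 2 or 4, without the E7 library of day A or day C, and with no filter on low counts (adjusted p from 0.0527 to 0.108). It did not pass on any of the 3 days alone. Among the other 29 genes, PSMA5 (-0.26, adjusted p = 0.0835), PSMA4 (-0.24, adjusted p = 0.0776) and PSMC4 (-0.23, adjusted p = 0.156) had the next smallest p. PSMD5 had the highest value, 0.08. PSMC5 shares its locus on chromosome 17 with the overlapping gene FTSJ3 in the RefSeq table, whose change was -0.11 (adjusted p = 0.401). Nearby lies the pseudogene TCAM1P, which rose by 2.05 (adjusted p = 0.0118). PSMA2 lies near MRPL32, a mitochondrial ribosomal protein gene, which fell by 0.33 (adjusted p = 0.0449), and SUGCT, which fell by 1.08 (adjusted p = 0.0380). The 30 tested genes nearest to each of the pair had median changes of 0.05 around PSMC5 and -0.04 around PSMA2.

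**Figure D2:**
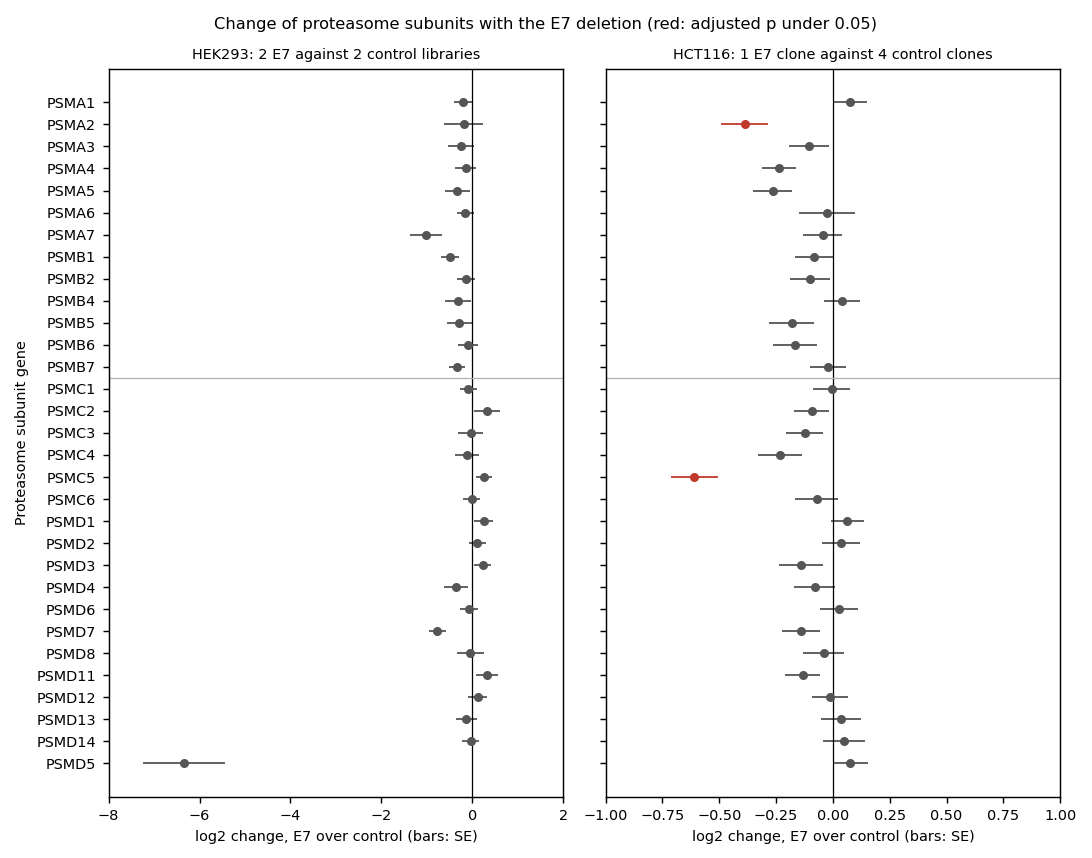
log2 change of each proteasome gene in E7 over control libraries (points, with bars of 1 SE; the line separates 20S from 19S genes), in HEK293 at left and HCT116 at right, on different horizontal scales. PSMC5 and PSMA2 passed in HCT116 (red), no gene passed in HEK293, and PSMD5 lies at -6.34 in HEK293 and 0.08 in HCT116.

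Summed over the 31 genes, the share of gene counts was 0.563% ± 0.0351 in the E7 libraries (SD, n = 3) and 0.603% ± 0.0600 in the control libraries of days A to C (SD, n = 12). By day, the E7 clone had 0.524%, 0.590% and 0.575% on days A, B and C. On day A it lay among the control clones (0.497% to 0.629%), while on days B (0.642% to 0.6997%) and C (0.594% to 0.613%) it lay below all 4. The mitochondrial mRNA share was 3.64% to 4.32% in the E7 libraries and 4.71% to 6.5995% in these control libraries. The part of that difference in the changes of PSMC5 and PSMA2 was not tested.

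Among 44 tested genes of 46 in lists of proteasome partners, 3 were higher and 2 lower in the E7 clone, where 7.58% of all genes were called higher and 6.32% lower, so both counts were near those shares. ECPAS, a proteasome adaptor and scaffold, rose by 0.87 (adjusted p = 0.000559), with 169, 187 and 192 CPM in the E7 libraries against 77.6 to 118 CPM in control libraries. NFE2L1 rose by 0.34 (adjusted p = 0.0408). PSMG1, a chaperone of alpha ring assembly, fell by 0.39 (adjusted p = 0.0210). The immunoproteasome subunit PSMB8 was called lower as well, at 0.07, 0 and 0 CPM in E7 libraries and at most 0.58 CPM in control libraries. These levels are too low to give a fold. PSMB8 passed the filter on low counts through control clones alone, so it could be called only as lower. Its call is not read as a change. None of the 5 activators and inhibitor and none of the 6 ubiquitin and E1 genes passed.

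In HEK293, none of the 31 genes passed for E7 against control, where 0.0254% of 11806 genes tested were called in either direction (3 genes, 1 of them NEFM, higher in E7 libraries, with 1487 at an unadjusted p under 0.05). By unadjusted p, 4 of the 31 were under 0.05, all with lower values in E7 libraries: PSMD5, PSMA7, PSMD7 and PSMB1. DESeq2 called 463 genes, 2 of them in the proteasome list, PSMD5 and PSMD7, both lower, where 2.56% of all genes were called lower. The median change of the 31 genes was -0.13 and 24 were below 0. Both E7 libraries lay above both control libraries for 7 of the 31 genes and below them for 6, where 28.7% of all genes lay above and 20.9% below. The summed share was 0.6004% ± 0.0071 in E7 libraries (SD, n = 2) and 0.614% ± 0.0741 in control libraries (SD, n = 2), so the control clones differed from each other more than the groups did. Without control clone 1, 21 of the 31 passed (17 lower and 4 higher), against 52.5% of all genes. Without control clone 2, 7 passed (4 lower and 3 higher), against 16.2% of all genes, and the median change moved to -0.35 and 0.09 in these 2 fits. These counts rest on which control clone is used, for all genes as for these 31, and the spread in both fits is that between the E7 libraries alone.

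PSMD5 was almost absent from the E7 libraries. It had 0.57 and 0.41 CPM there (20 and 13 counts), against 65.3 and 13.7 CPM in HEK293 control clones 1 and 2 (1858 and 362 counts). The groups did not overlap, and the control clones differed widely. Its change was -6.34 (SE 0.90, unadjusted p = 0.00068, adjusted p = 0.189). It passed under DESeq2 (-6.35) and with a replicate block (-6.13), but not with another scaling of the counts or no filter (adjusted p from 0.189 to 0.194). With the E7 libraries summed as 1 clone the change was -6.34, without E7 library 1 it was -6.59 and without E7 library 2 -6.14. Without control clone 1 it was -4.88 and without control clone 2 -7.05. It passed in both, but there the spread is that of the E7 libraries alone, and the gap between the control clones is removed. In HCT116 the same gene had 89.8, 90.4 and 101 CPM in E7 libraries and 74.7 to 99.5 CPM in control libraries of days A to C, which overlap. Of its neighbours in HEK293, FBXW2 had a value of 0.03 (adjusted p = 0.963) and PHF19 of 0.44 (adjusted p = 0.402). The 30 nearest tested genes on chromosome 9 had a median change of -0.0023, with none below PSMD5.

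PSMA7, a subunit of the alpha ring, had 145 and 163 CPM in HEK293 E7 libraries and 207 and 384 CPM in HEK293 control libraries (-1.02, SE 0.36, adjusted p = 0.355). PSMD7, a lid subunit that pairs with the deubiquitinase PSMD14, had 85.3 and 91.5 CPM in E7 libraries and 139 and 150 CPM in control libraries (-0.78, SE 0.19, adjusted p = 0.243). Both genes were lower in each E7 library than in each control library without passing the test. The 30 nearest tested genes had median changes of -0.53 around PSMA7 on chromosome 20 and -0.52 around PSMD7 on chromosome 16. At the other end, PSMC2, an ATPase, had the highest value (0.33, adjusted p = 0.635). None of the 41 tested partner genes passed in HEK293. Of the 4 epithelial markers listed there, EPCAM (1.03, adjusted p = 0.270), KRT8 (0.78, adjusted p = 0.370), KRT18 (0.47, adjusted p = 0.389) and KRT19 (1.56, adjusted p = 0.505), none passed, and all had higher levels in both E7 libraries than in either control library. Their part in the proteasome values was not tested.

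The difference between the lines was tested as an interaction. The change with E7 loss was higher in HEK293 than in HCT116 for PSMC5 (0.88, SE 0.17, adjusted p = 0.0363) and lower for PSMD5 (-6.40, SE 0.89, adjusted p = 0.0134). That is 1 of 31 in each direction, against 1.45% of 11849 genes tested called higher and 1.93% called lower. PSMC5 had 284 and 287 CPM in HEK293 E7 libraries, above the 226 and 230 CPM of HEK293 control clones, while in HCT116 its E7 libraries were below their controls. Leaving out single libraries kept both directions but not both calls: without any 1 HCT116 control clone the adjusted p of PSMC5 was 0.0613 to 0.102, and without either HEK293 E7 library neither gene passed. Without HEK293 control clone 1, 16 of the 31 passed, against 39.7% of all genes, and without clone 2, 7 did, against 17.6%, PSMC5 and PSMD5 with them in both. The comparison also sets day E against days A to C, and line and day cannot be told apart.

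**Figure D3:**
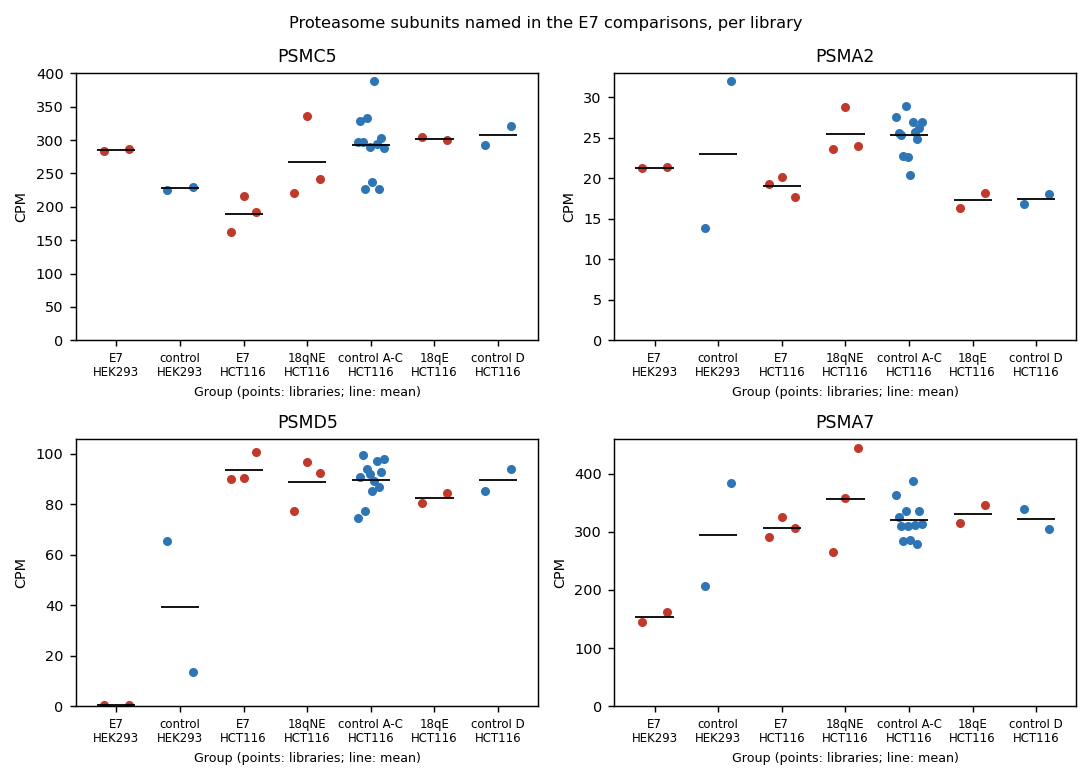
CPM of PSMC5, PSMA2, PSMD5 and PSMA7 in every library (points) with the mean of each group (line), by line and group. PSMC5 is below all controls in the HCT116 E7 libraries and above both controls in the HEK293 E7 libraries, and PSMD5 is near 0 only in the HEK293 E7 libraries.

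In the 18qNE clones no proteasome gene passed the threshold, where 0% of 15524 genes tested were called by edgeR (505 genes, none of them proteasome genes, had an unadjusted p under 0.05, and DESeq2 called 13 genes, with no proteasome gene). The median change of the 31 was 0.02, with 19 above 0. The summed share was 0.508%, 0.735% and 0.560% in 18qNE clones 1, 2 and 3, and clones 1 and 3 (day A) lay within the day A controls, while clone 2 (day B) lay above the 0.642% to 0.6997% of the day B controls. Without 18qNE clone 2, the only one of day B, the median was -0.18 against controls summed over both days. With day matched it was -0.0032 for the day A libraries alone and 0.05 for single libraries with day as a term. PSMA7 had the highest value (0.16), from 266, 359 and 444 CPM in 18qNE clones 1, 2 and 3. Its level in clone 3 was above the 279 to 363 CPM of the day A controls. PSMC3, an ATPase, had the lowest value (-0.15). None of 43 tested partner genes passed. The spread behind the 18qNE test holds day as well as clone, so the lack of calls cannot be laid to clones alone.

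In the 18qE clones none passed either, with 0% of 15261 genes tested called by edgeR (391 at an unadjusted p under 0.05, none of them proteasome genes, and 19 called by DESeq2, with no proteasome gene). The median change of the 31 was 0.02. The summed share was 0.638% and 0.646% in 18qE clones 1 and 2, against 0.633% and 0.687% in control clones 1 and 2 of day D. PSMB6, the caspase-like catalytic subunit, had the lowest value, -0.52 (SE 0.29). It had 72.4 CPM in 18qE clone 1 and 153 CPM in 18qE clone 2, against 161 and 166 CPM in the control clones. The low level is thus that of 1 clone. In the other 21 HCT116 libraries the lowest PSMB6 level was 112 CPM. PSMA5 had the highest value, 0.12, and no partner gene of 43 tested passed. Without 18qE clone 2, PSMB6 passed as lower, 1 of the 31 against 0.312% of all genes (-1.10, adjusted p = 0.00236), and without 18qE clone 1 it was -0.11.

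Most proteasome genes differed between days of RNA extraction. Among the 4 control clones, 24 of the 31 genes were higher on day B than on day A and none was lower, where 18.9% of 14441 genes tested were called higher. The median change from day A to day B was 0.35, all 31 values were above 0, and the median of all genes was -0.02. Of the 18 genes of the 19S list 16 rose: all 6 ATPases, 9 of 11 non-ATPases and PSMD5, with a median of 0.42. Of the 13 core genes 8 rose (5 of 7 of the alpha ring, 3 of 6 of the beta ring), with a median of 0.25. Both day comparisons use the same day A libraries, and the difference between the particles was not tested.

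PSMD11, a lid subunit, rose by 0.60 (SE 0.07, adjusted p = 5.45e-05). It had 218, 193, 179 and 201 CPM in control clones 1 to 4 on day A, 293, 304, 290 and 278 CPM on day B, and 289, 296, 279 and 269 CPM on day C. Day A did not overlap with day B or C. PSMC4, an ATPase, rose by 0.58 (adjusted p = 0.000189), with 168, 135, 141 and 130 CPM on day A, 207, 205, 237 and 185 CPM on day B, and 182, 188, 195 and 185 CPM on day C. The lid subunit PSMD12 rose by 0.49 (adjusted p = 0.000111), with 246, 234, 206 and 240 CPM on day A, 331, 327, 297 and 307 CPM on day B, and 323, 323, 316 and 308 CPM on day C. PSMC2 had 130, 111, 102 and 113 CPM on day A, 149, 166, 159 and 148 CPM on day B, and 145, 149, 144 and 148 CPM on day C, and rose by 0.49 from day A to day B (adjusted p = 0.000455). For these 4 genes every clone was higher on days B and C than any clone on day A. PSMD1, a base scaffold, and PSMC6, an ATPase, rose by 0.35 and 0.39. The lowest value was that of PSMB6 (0.02), followed by PSMD2 (0.04), a base subunit that receives ubiquitin-like domains, and neither passed.

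In all, 15 of the 31 genes were higher in all 4 clones on day B than in any clone on day A, against 11.6% of all genes, and none was lower in all, against 13.2%. The exception among clones was control clone 1, in which 18 of 31 genes were higher on day B than on day A, with a median log2 ratio of 0.04. In clones 2, 3 and 4 it was 29, 30 and 30 of 31, with medians of 0.32, 0.54 and 0.30. Without control clone 1, 29 of the 31 genes passed as higher (20.7% of all genes). Without clone 2 it was 17 (8.47%), without clone 3 also 17 (11.6%), and without clone 4 it was 19 (18.3%). The mitochondrial mRNA share was 5.24% to 6.5995% on day A, 4.81% to 5.01% on day B and 4.71% to 4.92% on day C, and reads outside genes were 7.78% to 11.7%, 8.59% to 10.5% and 9.15% to 14.3% of all counted reads on these days. The part of these shares in the proteasome values was not tested.

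**Figure D4:**
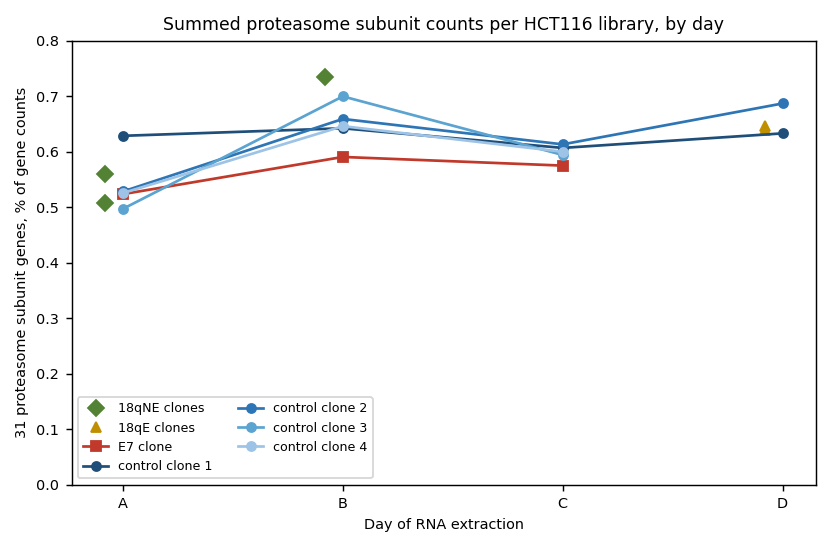
Counts of the 31 proteasome genes as a percent of all gene counts in each HCT116 library, by day of RNA extraction (lines join libraries of 1 clone). Control clones 2, 3 and 4 and the E7 clone are lowest on day A and highest on day B among days A to C, and control clone 1 is nearly level.

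From day A to day C, 13 of the 31 genes rose and none fell, where 15.6% of 14441 genes were called higher. The median was 0.21, with 26 values above 0. By particle, 12 of 18 genes of the 19S list rose, with all 6 ATPases, 5 of 11 non-ATPases and PSMD5, but only PSMB2 of the 13 core genes. PSMD11 rose by 0.55 (adjusted p = 0.000143), PSMD12 by 0.49, PSMC4 by 0.42 and PSMC2 by 0.40. PSMD6, a lid subunit (0.40, adjusted p = 0.0051), and PSMD5 (0.29, adjusted p = 0.00547) had the next smallest p. PSMB6 had the lowest value, -0.22 (adjusted p = 0.126), and was lower in all 4 clones on day C than in any clone on day A. It was the only one of the 31 to lie below, against 13.7% of all genes, and 7 lay above, against 11.5%. The count depended on single clones. It was 21 without control clone 1 (16.6% of all genes), 4 without clone 2 (5.75%), 7 without clone 3 (10.4%) and 8 without clone 4 (14.1%). From day B to day C no proteasome gene passed by edgeR, against 0.0346% of all genes (5 genes, with 1868 at an unadjusted p under 0.05). Of the 31, 6 were under 0.05 unadjusted, all lower on day C, 29 values were below 0, and the median was -0.15. For 13 of the 31, all 4 clones lay lower on day C than any clone on day B, against 4.42% of all genes, and for none higher, against 4.51%.

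Day D, sampled for control clones 1 and 2 alone, was set against the mean of their days A, B and C. PSMD8, a lid subunit, rose by 0.40 (adjusted p = 0.0357), 1 of 31 against 3.12% of 14782 genes called higher. It had 186, 193, 183 and 214 CPM in clone 1 on days A, B, C and D, and 151, 188, 183 and 241 CPM in clone 2. PSMA2 fell by 0.47 (adjusted p = 0.0437), 1 of 31 against 3% of all genes called lower. It had 27.6, 25.6, 25.3 and 16.9 CPM in clone 1 on these days and 22.8, 29.0, 22.6 and 18.0 CPM in clone 2. The 18qE clones of day D had similar PSMA2 levels, 16.4 and 18.2 CPM, and all 4 libraries of that day lay below all 12 control libraries of days A to C. Neither gene passed without clone 1 or without clone 2, and with no filter on low counts 12 of the 31 passed, 11 of them higher, against 4% of all genes. Reads without a unique alignment made up 15.6% to 24.8% in the 4 libraries of day D and 12.3% to 13.8% in the other HCT116 libraries. The part of this share and of the greater depth of day D was not tested.

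Activators, chaperones and other partners moved between days as well. On day B against day A, 20 of 43 tested partner genes rose and 5 fell, where 18.9% of all genes were called higher and 20.6% lower. Of the assembly chaperones 5 of 8 rose, led by PSMG1 (0.55, adjusted p = 0.000575) and PSMG3 (0.45). Of the other 19S and bound factors 5 of 7 rose, among them ADRM1, a ubiquitin receptor (0.57, adjusted p = 0.000433), ECPAS (0.43) and the deubiquitinase UCHL5 (0.35). Of 8 shuttle factors and segregase genes 5 rose, with RAD23B (0.38), NPLOC4 (0.33) and UBQLN1 (0.30) at the smallest p. The nuclear activator PSME3 rose by 0.58 (adjusted p = 9.97e-05) and the inhibitor PSMF1 by 0.30. In the other direction, the interferon-inducible activator subunit PSME1 fell by 0.49 (adjusted p = 0.000473) and the immunoproteasome subunit PSMB9 by 0.76 (adjusted p = 0.0200), at 2.05 to 3.60 CPM on day A and 1.08 to 2.29 CPM on day B. The polyubiquitin gene UBB fell by 0.32 and the E1 enzyme UBA1 by 0.21. Among the regulators, MAFG (0.28), MAFK (0.32) and NFE2L2 (0.21) rose and MAFF fell by 0.57, while NFE2L1 did not pass. On day C against day A, 17 of the 43 rose and 5 fell, where 15.6% of all genes were called higher and 17.4% lower. PSME3 (0.55), MAFG (0.48) and NPLOC4 (0.40) were among those that rose, and PSME1 (-0.46), UBB (-0.44) and PSMB9 (-0.82) among those that fell. NFE2L1, which had not passed on day B, was called higher on day C, close to the threshold (0.16, adjusted p = 0.0490).

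The E7 clone was read on the same days. Between days A and B, 30 of its 31 proteasome genes had higher CPM on day B, with a median log2 ratio of 0.17, and between days A and C 27 were higher on day C, with a median of 0.14. Tested as an interaction with 1 E7 clone, the response to day B did not differ past the threshold for any gene, with 0% of 15767 genes called by edgeR (518 at an unadjusted p under 0.05). Of the proteasome genes, only PSMD11 was under 0.05 unadjusted (-0.39, SE 0.16), and the median difference was -0.11. For the response to day C, 0% were called as well (490 at an unadjusted p under 0.05, none of them proteasome genes), with a median difference of -0.01.

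No proteasome gene passed the test between control clones. With day as a term, a joint test over the 4 clones called 7.89% of 14685 genes but none of the 31, and none had an unadjusted p under 0.05. The smallest p was that of PSMD3, a lid subunit (adjusted p = 0.319). Against the mean of the other 3, none of the 31 passed in any clone, where 0.953% of all genes were called for clone 1, 1.26% for clone 2, 7.65% for clone 3 and 5.3% for clone 4. Median differences were 0.10, -0.03, -0.01 and -0.08 for clones 1, 2, 3 and 4. Without day A, 2 of the 31, PSMC4 and PSMB5, passed as higher in clone 3, against 6.71% of all genes. Clone 1 had 30 of 31 values above 0, but without day A its median was -0.04. Of the partners, ZFAND5, a proteasome-binding zinc finger protein, differed between clones (adjusted p = 0.0295) and was lower in clone 3 (-0.30, adjusted p = 0.00657).

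**Figure D5:**
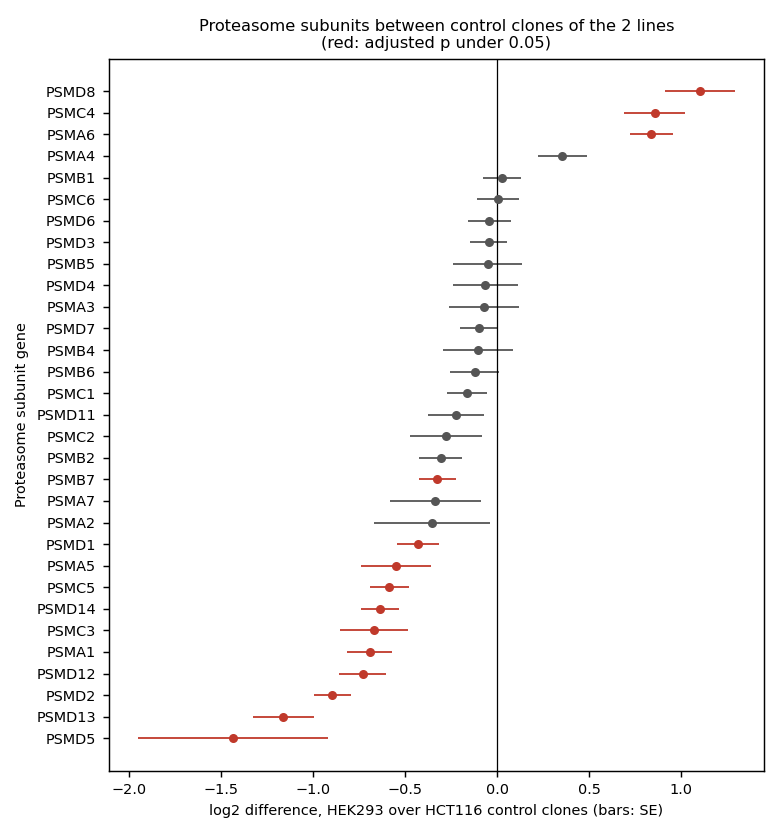
log2 difference of each proteasome gene between HEK293 and HCT116 control clones (points, with bars of 1 SE), sorted by size. PSMD8, PSMC4 and PSMA6 passed as higher in HEK293 and 11 genes as lower (red).

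Between the lines, HEK293 controls differed from HCT116 controls in 14 of the 31 genes, 3 higher and 11 lower, where 31.1% of 11805 genes tested were called higher and 26% lower. The median difference was -0.22, against 0.05 for all genes, and 25 of the 31 values were below 0. On CPM over the genes listed in both lines' files, the summed share was 0.614% ± 0.0741 in HEK293 controls (SD, n = 2) and 0.624% ± 0.0603 in HCT116 controls of days A to C (SD, n = 12). The sums differed by less than their spread, while single genes passed in both directions. PSMD8 (1.10, adjusted p = 0.00214) had 347 and 544 CPM in HEK293 control clones 1 and 2, against 153 to 228 CPM in HCT116 controls. PSMC4 (0.86, adjusted p = 0.0040) had 311 and 447 CPM in HEK293 controls, against 135 to 245 CPM in HCT116 controls. PSMA6, of the alpha ring (0.84, adjusted p = 0.000826), had 30.0 and 32.3 CPM in HEK293 controls, against 12.03 to 18.9 CPM in HCT116 controls. These 3 genes did not overlap between the lines. Of the genes lower in HEK293, PSMD2, PSMD13, PSMA1, PSMC5, PSMD14 and PSMD5 did not overlap either, and the rest did. The share of all genes without overlap was not counted here.

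Among the 11 that were lower in HEK293, PSMD2 had the smallest p (-0.90, adjusted p = 0.000336), with 314 and 311 CPM in HEK293 controls against 456 to 595 CPM in HCT116 controls. PSMD13, of the lid (-1.16, adjusted p = 0.000888), had 91.0 and 124 CPM in HEK293 controls against 166 to 261 CPM in HCT116 controls. PSMD14, the deubiquitinase of the lid (-0.64), PSMA1, of the alpha ring (-0.69), PSMD12 (-0.73) and PSMC5 (-0.59) followed. The lowest value was that of PSMD5 (-1.44, adjusted p = 0.0474), with 65.3 and 13.7 CPM in HEK293 controls against 77.4 to 103 CPM in HCT116 controls. The remaining 4 were PSMC3 (-0.67), PSMA5 (-0.55), PSMD1 (-0.43) and PSMB7, the trypsin-like subunit (-0.33). PSMD5, PSMA5 and PSMB7 lost their calls when any 1 HCT116 control clone was left out (adjusted p from 0.0574 to 0.0940), and with library totals alone. PSMD1 lost its call without HCT116 control clone 2 (adjusted p = 0.0539) and with library totals alone. By class, 2 of 18 genes of the 19S list were higher and 8 lower, and of 13 core genes 1 was higher and 3 lower. Of 41 tested partners, 9 were higher and 13 lower in HEK293, among them USP14, a deubiquitinase of the 19S particle (0.92), UBQLN2 (0.73) and UBA1 (0.58) as higher, and RAD23B (-1.19), MAFK (-1.27), NFE2L2 (-0.97) and MAFG (-0.82) as lower. Scaled by library totals alone, 4 of the 31 were higher and 7 lower, the median was -0.03 and that of all genes 0.23. Against the day D libraries of HCT116 in place of days A to C, 4 passed, all lower in HEK293 (PSMC5, PSMC3, PSMD2 and PSMD13), against 14% of all genes. Without HEK293 control clone 1, 8 were higher and 12 lower, with a median of -0.00098, against 73.2% of all genes called in either direction. Without HEK293 control clone 2, 3 were higher and 22 lower, against 71.3%. With a replicate block 5 passed, against 32.1% of all genes (PSMD5, PSMD8, PSMA6, PSMD2 and PSMD13). All HEK293 RNA was of day E, so line and day cannot be told apart.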

How the data were processed

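RNA sequencing counts of 26 of the series' 32 samples were used; 6 chromatin samples were not analysed here. The deposited values are whole-number counts of reads per gene, 1 library per file, not normalized. Tools named, without roles, per the submitters' processing notes are HTSeq 0.6.1, TopHat2, BWA 0.6.2, bedtools, Partek 3, bcl2fastq and CASAVA, and the build is hg19. No source used here gives the strand setting, so reads of overlapping genes, which 13 of the 32 members have in the RefSeq table, cannot be told apart. Summary lines of the HCT116 files, among them 6.34% to 14.3% of counted reads outside genes, stayed out of totals and tests. The HEK293 files list only 11887 genes, which hold 95.6% to 97.0% of HCT116 gene counts.

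IDs were matched to symbols through NCBI tables (39538 IDs in HCT116 and 11218 in HEK293 files). Counts were tested with edgeR 4.0.16 in R 4.3.3 (quasi-likelihood F test, TMM, filterByExpr with a minimum count of 10, 2-sided, Benjamini-Hochberg adjustment over all genes tested, threshold 0.05). DESeq2 1.42.0, other scalings, no filter, left-out libraries and other groupings were alternatives. The E7 test used sums over days A to C, the 18qNE test sums of control clones over days A and B, and the line and interaction tests genes in both lines' files. Scripts were tested on simulated data. At the group sizes of the HEK293 E7 and 18qE tests, that check required the right direction of change but no number of calls. Clone was a term between days because the labels give the same clones on each day; same-clone deviations of days A and B, A and C, and B and C correlated at -0.07 to 0.54. Other shared replicate numbers do not pair clones.

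Named genes were, per comparison, the members called (6 with the smallest p per direction), the highest and lowest member, and up to 3 called partners per list and direction; PSMA7, PSMD7, PSMB1 and genes next in p were named after their values were seen. The members, lists and tests were chosen with earlier results of these data known. One called partner gene is not reported here.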

Additional observations from a re-analysis of the deposited data

Results flagged for a closer look

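Within a control day of 4 libraries, a library was singled out where its gap to the nearest other library, divided by the range of the 4, exceeded Dixon's critical value. Of 93 such groups, 8 held one, where chance gives about 1 in 20 for independent groups. These groups are genes read in the same libraries and are not independent, so the count cannot be judged against that rate. Control clone 1 was the high library on day A for PSMA7 (0.919), PSMB4 (0.851), PSMC5 (0.851) and PSMD8 (0.898). Control clone 3 was the high library on day B for PSMB5 (0.900) and PSMD8 (0.835), and the low library on day C for PSMD14 (0.949). Control clone 4 was the low library on day C for PSMD3 (0.881).

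The change with E7 loss differed between HEK293 and HCT116 by the interaction test for PSMC5 (0.88) and PSMD5 (-6.40).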

How the results depend on the processing

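Of 164 alternative counts of proteasome genes called, 121 stayed within 1.5 times the reported count, with counts of 0 that stayed 0 among them. For counts of all genes called, 95 stayed within that limit and 69 did not. Shares of all genes are not given beside the counts in this section, so a moved count is not read as particular to proteasome genes. Of the values of single genes, 662 kept direction and side of the threshold, 110 lost their call, 10 gained one and 8 turned sign; except where stated the causes were not tested. For E7 in HCT116 (2 called), no filter gave 1, DESeq2 4, libraries as replicates 4, 18qNE clones as reference 0, and days A, B and C alone (alternatives chosen after seeing the data) 0, 0 and 1; leaving out single clones or libraries gave 1 to 4, with medians from -0.111 to -0.0102, and day B alone a median of -0.168. For E7 in HEK293 (0 called), DESeq2 gave 2, E7 libraries summed 1, and left-out libraries 1 to 21, with medians from -0.348 to 0.0880. For the interaction (2 called), left-out libraries gave 0 to 16, with medians from -0.201 to 0.138. Left-out clones gave medians from -0.184 to 0.0964 for 18qNE and 0 to 1 called for 18qE. From day A to day C (13 called) they gave 4 to 21. For day D (2 called), library totals gave 1, no filter 12, DESeq2 5 and left-out clones 0. Left-out days gave medians from -0.0369 to 0.181 for control clone 1 and 0 to 2 called for clone 3. Between lines (14 called), day D libraries gave 4 with a median of -0.396, library totals a median of -0.0330, and left-out clones 10 to 25 with medians from -0.431 to -0.00098.

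Signs turned for PSMD5 with E7 on day B alone (-0.0169) and for PSMB6 from day A to B with library totals (-0.0239). With single clones, libraries or days left out, values spanned 0 as follows: PSMA7 in 18qNE -0.0326 to 0.329, PSMC2 with E7 in HEK293 -0.0013 to 0.738, PSMB6 from day A to B -0.121 to 0.191, PSMD5 in control clone 1 -0.0758 to 0.0199, PSMA6 in control clone 4 -0.0205 to 0.297, and PSMB6 in the E7 response to day B -0.0709 to 0.206. None of the reported values among these passed its test.

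Outside the comparisons of days, replicate numbers shared between groups are only numbers (correlations of same-numbered samples -0.27 to 0.34). The replicate block gave 2 called for E7 in HEK293, 5 between lines (median -0.289), and 0 for 18qNE and 18qE. Without the block of clones, 23 passed from day A to B, 9 from A to C, 0 from B to C and 1 for day D. Depth limits the rarest genes: PSMB8 was at 0 to 1 counts in the E7 libraries.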
